A study of Homo sapiens with 9 samples.

Results

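NFE2L1 against control is the comparison of the line overexpressing full-length NFE2L1 with the vector control line, 3 libraries each, in a series of 9 RNA-seq libraries that the labels assign to HepG2, a line derived from a human liver tumour. Every gene that reached 1 TPM in at least 3 of these 6 libraries was taken as a member, which kept 13751 of the 58174 genes in the table, or 23.6%. TPM is an abundance corrected for transcript length and scaled to the same total in each library. Control libraries are titled HepG2, carry the genotype label WT and are named HepG2-pLVX in the protocol, after an empty lentiviral vector. The NFE2L1 libraries come from cells labelled as overexpressing NFE2L1. A further 3 libraries come from cells overexpressing NFE2L1DC, written NFE2L1ΔC in the protocol, and are used here for the spread and for a second comparison. All 3 lines were grown in high-glucose DMEM with 10% fetal bovine serum, and no drug or time point is named. The sources used here do not give the promoter of the vector, the number of clones in a line or the extent of the change in NFE2L1DC. No label says that replicates were separate cultures, so a p-value below speaks of the spread among these libraries, which may be technical.

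NFE2L1, also called NRF1 or TCF11, is a basic leucine zipper factor of the cap'n'collar family. The newly made protein sits in the membrane of the endoplasmic reticulum, is pulled out by the VCP ATPase, deglycosylated by NGLY1 and cut by the protease DDI2, and then pairs with small MAF proteins on antioxidant response elements in the nucleus. It is best known for raising the genes of the proteasome when proteasome activity falls, and in liver it is also tied to lipid and redox balance. The closely related factors NFE2L2 and NFE2L3 recognise similar elements.

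The labelled cell type was checked against its defining genes before anything else. The 12 genes set down as defining for hepatocytes and HepG2 were all under 1 TPM in all 6 libraries, and none of them entered the test. ALB, APOB, TTR, SERPINA1, FGB and FOXA2 were listed at 0 in every one of the 6, and the highest value of any defining gene was 0.751 TPM, for the apolipoprotein APOA2. The liver factor HNF4A did not exceed 0.151 TPM. Summed over the 12 genes, the level was 0.142 to 0.84 TPM in the control libraries and 0.151 to 0.387 TPM in the NFE2L1 libraries. KRT7, a keratin of simple ducts and of other glandular epithelia, lay between 488 and 586 TPM in control, and INSL4, a relaxin-family hormone known from placenta, lay between 31.6 and 38.7 TPM. Of the 43 adhesion and cytoskeleton genes listed with KRT7, 27 were tested, and KRT19, KRT20, KRT23, EPCAM and CDH1 were not. In the wider list of 27 hepatocyte markers 4 were tested. Over the 6 libraries A2M was at 22.3 to 106 TPM, FOXA1 at 7.5 to 14.1, CEBPA at 5.24 to 8.31 and VTN at 1.64 to 4.4 TPM. With all 12 defining genes under 1 TPM, the values go against the HepG2 label. The other genes named do not settle which cells these are, and why label and values differ was not tested. The libraries are therefore named here by their labels only. Of the markers of other cells, COL1A2 of fibroblasts, PTPRC, LYZ, CD3E and MS4A1 of leukocytes and NEFL, NEFM, PAX2 and LIN28B of packaging cells were listed at 0 in all 6 libraries. The fibroblast list, with 4 of its 8 genes tested, summed to 127 to 148 TPM in control and 92.1 to 106 TPM with NFE2L1. The leukocyte list, with 2 of 8 tested, summed to 24.5 to 26.0 and 36.0 to 43.8 TPM, nearly all of it from CD68, a lysosomal membrane protein that is not restricted to leukocytes. No endothelial marker reached 1 TPM. The remaining packaging-cell gene, the cadherin CDH2, was at 10.9 to 17.2 TPM in control and 24.6 to 25.3 TPM with NFE2L1. The part of these marker levels in the results below was not tested.

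Control replicate 3 stood apart from its group. The leading principal component of the tested genes carried 42.9% of the variance: its scores were -43.3 in each of the other control libraries, 4.8 in control replicate 3 and 19.7 to 22.9 with NFE2L1. The next component (13.4%) put control replicate 3 at -37.2, away from all other libraries, which scored from -3 to 10.7. The gap between control replicate 3 and its 2 partners was lower in genes of higher GC content (Spearman's rho -0.621 over 13719 genes). For NFE2L1 minus control the same rho was -0.399, for NFE2L1 minus control replicates 1 and 2 it was -0.52, and for NFE2L1 minus control replicate 3 alone it was 0.137. These are descriptions across genes, which are not independent. Between 13057 and 13950 genes reached 1 TPM in a library and mitochondrially encoded genes took 15.3% to 18.9% of the TPM. Counts of list members without control replicate 3 are given beside a list where they move by more than 1.5 times, to be read against the 31.2% of all tested genes then called higher and the 5.87% called lower. In bulk libraries fewer cells of a kind and less RNA per cell cannot be told apart.

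With full-length NFE2L1, genes induced by interferons, genes switched on by ERK signalling and the heme oxygenase gene HMOX1 stood at the top of the higher genes, while the protease inhibitor A2M and the cyclooxygenase PTGS1 were among the lower ones. IFI27, a mitochondrial and nuclear envelope protein induced by type I interferon, had the largest difference on the log2(TPM + 1) scale, and its mean TPM was 73.5-fold higher. Proteasome genes, the best known targets of NFE2L1, differed by far less. Differences are given as log2 differences, NFE2L1 minus control, of log2(TPM + 1), a scale that understates the change of genes near 1 TPM, and folds as ratios of mean TPM. Genes are called changed at an adjusted p under 0.05 in limma over all tested genes.

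In all 1489 of 13751 genes changed, or 10.8%, of which 1119 were higher (8.14%) and 370 lower (2.69%). Every count of called list members below is to be read beside these shares. A log2 difference of at least 1 was reached by 247 higher and 41 lower genes, at least 2 by 31 higher and 3 lower genes, and at least 3 by 9 higher genes. Another 424 of the changed genes differed by less than 0.5. The median log2 difference over all tested genes was 0.17, and 69.0% of them were above 0. Under median-of-ratios scaling, which moved that median to 0.01, 557 genes were higher (4.05%) and 554 lower (4.03%), and of the calls without scaling 550 higher and 347 lower genes remained. Of the 247 higher by at least 1, 241 remained under that scaling and all 247 without control replicate 3. Without control replicate 3 the calls were 4293 higher (31.2%) and 807 lower (5.87%). The libraries of the groups did not overlap in 4482 genes (32.6% of those tested), among them 1487 of the 1489 changed genes.

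**Figure D1:**
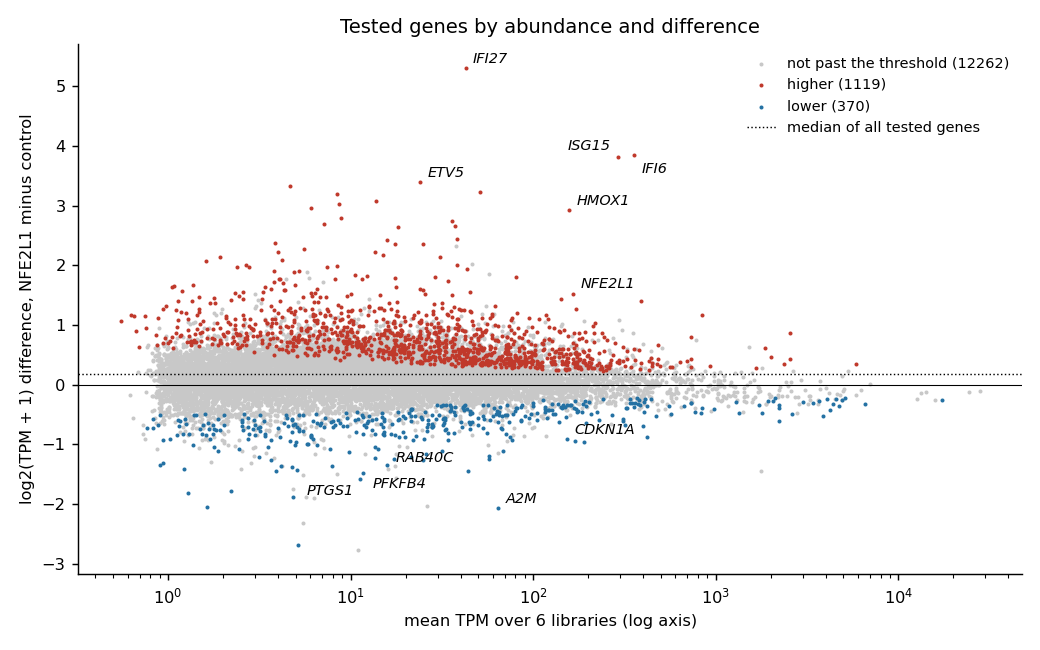
Each point is 1 of 13751 tested genes, placed by its mean TPM over the 6 libraries (log axis) and its log2(TPM + 1) difference, NFE2L1 minus control; 1119 higher genes are red, 370 lower genes blue, and the dotted line is the median of 0.17. IFI27 lies highest at 5.31, and among abundant genes IFI6, ISG15 and HMOX1 stand clear of the rest.

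Protein-coding genes made up most of the calls: 9.48% of the 11317 tested were higher and 2.81% lower, beside 2.7% and 2.95% of 407 lincRNAs. Of the 37 tested genes of the mitochondrial chromosome, 11 were lower and none higher. Of the higher genes, 80 had a control mean under 1 TPM, and 54 had entered the test only because the 3 NFE2L1 libraries reached 1 TPM, so these had to differ between the groups. The same holds for 25 of the lower genes, which had entered only through the 3 control libraries, as had 62 of all tested genes. Changed neighbours were found along the chromosomes: on chromosome 10 IFIT2, IFIT3, IFIT1 and IFIT5 followed each other among the tested genes and all rose, on chromosome 12 OAS1, OAS3 and OAS2, and on chromosome 6 TAP2, PSMB8, PSMB9 and TAP1. Paralogs such as these can share reads, and the sources used here do not say how such reads were counted.

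NFE2L1 itself (ENSG00000082641, chromosome 17, 48048329 to 48061487) checks the labels. It was at 104, 81.7 and 64.0 TPM in the control libraries and at 207, 181 and 354 TPM in the NFE2L1 libraries. Every NFE2L1 library was above every control library, and the NFE2L1 libraries differed more among themselves, replicate 3 being the highest. The difference was 1.52 (SE 0.24, adjusted p = 0.0057) and passed in all 22 alternative fits, which change the filter, pseudocount, scaling, model or libraries. Reads of the introduced and the endogenous gene are not separated in this table. No other one of the 17 tested genes of the cap'n'collar and partner list changed, while without control replicate 3 the list had 7 higher genes and 1 lower. The lower one was NFE2, the blood cell member of the family, at 4.15, 3.57 and 2.89 TPM in control and 1.59, 1.93 and 2.32 TPM with NFE2L1, which with all libraries was not called (-0.62, adjusted p = 0.0894). NFE2L2 was at 12.1, 13.7 and 36.6 TPM in control and 22.1, 14.4 and 25.5 TPM with NFE2L1, overlapping widely (log2 difference 0.12, adjusted p = 0.836). NFE2L3 was at 0.889, 1.41 and 2.44 in control and 2.77, 3.42 and 3.73 TPM with NFE2L1, without overlap but with an adjusted p of 0.084 (log2 difference 0.78). The small MAF partners, the BACH repressor tested and 9 regulators of these factors, including VCP, NGLY1 and DDI2, had log2 differences from -0.01 to 0.78.

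The proteasome is the protease complex that degrades ubiquitin-tagged proteins, built from a 20S core of alpha and beta rings and a 19S cap of ATPases, receptors and a lid. All 33 core and cap genes had a log2 difference above 0, as did 69.0% of all tested genes. Of the 14 core genes 3 rose and none fell, all 3 in the alpha ring, with a median of 0.26. Of the 19 cap genes 7 rose and none fell, with a median of 0.37. The share of core and cap genes called higher is set beside 8.14% of all genes and their medians beside 0.17. Without control replicate 3, 6 core and 11 cap genes were higher and none lower.

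In the cap, PSMD1, a scaffold of the base, was at 21.2, 25.8 and 44.2 TPM in control and 60.8, 66.4 and 59.1 TPM with NFE2L1 (1.07, SE 0.23, adjusted p = 0.0215). The lid subunit PSMD12 was at 8.34, 7.48 and 18.8 in control and 21.8, 21.9 and 25.1 TPM with NFE2L1 (1.04, adjusted p = 0.0461). In both genes control replicate 3 lay between the other controls and the NFE2L1 libraries. PSMC1, one of the ATPases that unfold substrates, was at 32.0, 32.4 and 49.9 in control and 73.8, 59.7 and 81.7 TPM with NFE2L1 (0.92, adjusted p = 0.0212). In the core, the alpha subunit PSMA3 was at 29.4, 36.1 and 46.2 in control and 60.5, 59.7 and 65.9 TPM with NFE2L1 (0.74, adjusted p = 0.0157). PSMA5 rose by 0.37, PSMA1 by 0.34 and the lid subunit PSMD6 by 0.68. POMP, the chaperone that closes the beta rings, was at 48.1, 59.3 and 68.7 in control and 99.6, 101 and 92.3 TPM with NFE2L1 (0.74, adjusted p = 0.00678) and was the only riser among 9 assembly genes, with groups that did not overlap and a call kept in all 22 alternative fits. Of the assembly genes 5 were higher and 1 lower without control replicate 3. None of the 13 ubiquitin and shuttle genes changed, their median being 0.13 and -0.05 under median-of-ratios scaling, but 5 were higher and 2 lower without control replicate 3. Of the 7 called cap genes only 2 kept the call without NFE2L1 replicate 2 and 2 without NFE2L1 replicate 3, 3 without control replicate 1, 3 without control replicate 2 and 3 without NFE2L1 replicate 1, while the 3 core genes all lost it without NFE2L1 replicate 1, NFE2L1 replicate 3 or control replicate 2. Under median-of-ratios scaling 1 core and 4 cap genes were called.

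NFE2L1 binds antioxidant response elements, so the RefSeq promoters (GRCh38.p14, 250 bases before to 50 after each start) were searched on both strands for TGACNNNGC. A promoter was matched for 28 of the 33 core and cap genes, and 9 of the 28 held the letters, beside 4687 of all 35116 promoters, or 13.3%, and 1924 of the 9740 tested genes with a promoter, or 19.8%. Of these 9 genes, 7 held a match whole upstream of the start. Among the 7 only PSMD12 and ADRM1, the ubiquitin receptor of the cap, were changed genes. The others with an upstream match were not called, with log2 differences from 0.05 to 0.71. In PSMD1 and PSMC4, also among the changed genes, no match lay whole upstream. Shown are the 70 bases around the match in PSMD12 and ADRM1, picked because they changed. They are on the gene's strand, at chr17:67366698-67366767 (minus strand) and chr20:62302734-62302803 (plus strand), with the matching letters in capitals.
PSMD12: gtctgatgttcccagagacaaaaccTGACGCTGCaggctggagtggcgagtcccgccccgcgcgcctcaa
ADRM1: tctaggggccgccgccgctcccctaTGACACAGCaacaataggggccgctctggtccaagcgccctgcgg
ADRM1 was at 235, 247 and 211 TPM in control and 278, 282 and 294 TPM with NFE2L1, without overlap, a difference of 0.30 (adjusted p = 0.0371) that was not called in 13 of the 22 alternative fits. A match of letters is a description of the promoter and no evidence of binding.

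Genes of the antioxidant response, the program shared with NFE2L2, went both ways. Of 32 tested, 1 of them only through the NFE2L1 libraries, 10 rose and 3 fell, with a median of 0.23 that was 0.04 under median-of-ratios scaling. HMOX1, which opens the heme ring and releases iron and biliverdin, was at 35.0, 43.8 and 29.8 TPM in control and 262, 288 and 287 TPM with NFE2L1. The lowest NFE2L1 library was far above the highest control, a 7.7-fold difference (2.93, SE 0.14, adjusted p = 5.48e-06) called in all 22 alternative fits. The export pumps for organic anions followed: ABCC3 was at 12.5, 12.3 and 16.1 in control and 38.6, 30.2 and 30.8 TPM with NFE2L1 (1.22, adjusted p = 0.00546). ABCC2 was at 20.3, 17.4 and 37.0 in control and 53.3, 49.7 and 52.8 TPM with NFE2L1 (1.10, adjusted p = 0.0246), with control replicate 3 between the other libraries. SLC7A11, the cystine importer that feeds glutathione synthesis, was at 1.08, 0.847 and 2.08 in control and 3.67, 3.43 and 4.55 TPM with NFE2L1 (1.09, adjusted p = 0.0138). The falling members were GSR, GPX4 and TKT, the glutathione reductase, the lipid peroxidase of glutathione and transketolase, named because they are all the falling members. Without control replicate 1 only 3 of the 13 calls were kept, and without any other single control or NFE2L1 library 4, except control replicate 3, without which all 13 were kept.

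Of 17 iron and heme genes 2 rose and none fell, a count near the 8.14% of all genes, and without control replicate 3 there were 4 higher and 1 lower. The transferrin receptor TFRC, which brings iron into the cell, was at 74.1, 73.6 and 175 in control and 247, 240.5 and 226 TPM with NFE2L1 (1.26, adjusted p = 0.0288). Control replicate 3 was again the high control, and the call was lost without any single library of the 2 groups other than control replicate 3. ALAS1, the first enzyme of heme synthesis, was at 78.8, 75.9 and 80.3 in control and 104, 99.8 and 106 TPM with NFE2L1 without overlap (0.39, adjusted p = 0.0134), a call lost without control replicate 2, NFE2L1 replicate 1 or NFE2L1 replicate 3. Among 8 metallothionein and zinc genes MT1X alone was called, at 56.7, 60.2 and 53.2 in control and 80.5, 86.2 and 87.6 TPM with NFE2L1 (0.57, adjusted p = 0.0065), and its near-identical relatives make that assignment uncertain. Under median-of-ratios scaling no gene of that list was called higher and 1 was called lower, and without control replicate 3 there were 4 higher and none lower.

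Interferons act through receptors that activate a complex holding STAT2 and IRF9, which binds the interferon-stimulated response element and switches on antiviral effectors. None of the 6 interferon genes listed reached the level needed for the test. Of the 6 receptor genes 1 rose, and of 11 tested kinases and factors 3 rose, none of the list falling. Of 13 sensors of foreign nucleic acid 5 rose and none fell, 1 of the 13 having entered the test only through the NFE2L1 libraries. The effectors stood out in count: 36 of 38 tested rose and none fell, with a median of 1.48, and in all 38 the 3 NFE2L1 libraries were above the 3 control libraries, beside 23.0% of all tested genes. Of the 38, 4 had entered only through the NFE2L1 libraries. The 2 effectors not past the threshold were PML (log2 difference 0.65, adjusted p = 0.057) and IFI27L2 (0.55, adjusted p = 0.124).

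Among the signalling genes IRF7, the factor that amplifies interferon production, was at 4.6, 4.85 and 5.6 TPM in control and 32.8, 27.0 and 29.6 TPM with NFE2L1 (2.36, SE 0.14, adjusted p = 2.82e-05). IRF9, the DNA-binding subunit of that complex, was at 9.88, 13.6 and 8.83 in control and 62.6, 54.9 and 36.3 TPM with NFE2L1 (2.14, SE 0.25, adjusted p = 0.0011). The groups were separate in both, and IRF9 varied more among the NFE2L1 libraries. The interferon gamma receptor subunit IFNGR1, at 4.49, 4.8 and 10.4 in control and 14.4, 13.6 and 14.1 TPM with NFE2L1 (1.07, adjusted p = 0.0335), lost its call when any single library of the 2 groups other than control replicate 3 was left out. Of the sensors, IFIH1, which binds long double-stranded RNA, was at 0.907, 1.09 and 1.46 in control and 5.17, 5.56 and 6.29 TPM with NFE2L1 (1.64, adjusted p = 0.00135). DDX58, the RIG-I sensor of RNA ends, was at 0.0665, 0 and 0.324 in control and 1.42, 1.86 and 2.14 TPM with NFE2L1, and it was tested only because the NFE2L1 libraries reached 1 TPM. The DNA sensor IFI16 rose by 1.52 and the kinase EIF2AK2, which halts translation on double-stranded RNA, by 1.21.

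The interferon-stimulated response element was searched on both strands in the same promoters, as GAAA followed by any 2 bases and GAAA again. Of the 38 effectors 31 had a promoter in the table, and 22 of these held the letters, beside 1255 of 35116 promoters, or 3.57%, and 352 of the 9740 tested genes with a promoter, or 3.61%. In 20 of the 22 a match lay whole upstream of the start. Below are 70 bases around the first match in 5 effectors with an upstream match, chosen after their values were seen. Matches that lie whole within the 70 bases are in capitals. They are not simply the largest risers: IFIT3 also held an upstream match and rose by more than IFIT1 and OAS3. OAS1, OAS2 and UBE2L6, which rose by more than IFIT1 and OAS3, are not among the 22, through want of a match or of a promoter. The stretches shown lie at chr14:94110603-94110672 (IFI27, plus strand), chr1:27672304-27672373 (IFI6, minus strand), chr1:1013359-1013428 (ISG15, plus strand), chr10:89392482-89392551 (IFIT1, plus strand) and chr12:112938306-112938375 (OAS3, plus strand).
IFI27: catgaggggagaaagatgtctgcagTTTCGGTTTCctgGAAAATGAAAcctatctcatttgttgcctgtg
IFI6: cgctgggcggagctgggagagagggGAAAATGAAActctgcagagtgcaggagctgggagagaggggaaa
ISG15: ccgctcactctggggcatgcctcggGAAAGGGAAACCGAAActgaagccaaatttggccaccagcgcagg
IFIT1: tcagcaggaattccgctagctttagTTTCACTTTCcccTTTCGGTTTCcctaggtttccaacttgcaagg
OAS3: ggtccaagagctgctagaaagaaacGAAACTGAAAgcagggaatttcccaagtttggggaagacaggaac
The element stood in forward letters in IFI6 and OAS3, in overlapping copies in ISG15, as the reverse complement in IFIT1 and in both directions in IFI27.

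IFI27 was at 1.13, 1.36 and 0.953 TPM in control and 81.2, 97.4 and 74.2 TPM with NFE2L1 (5.31, SE 0.14, adjusted p = 1.88e-07). IFI6, a survival factor of the endoplasmic reticulum and mitochondria, was at 51.0, 57.9 and 32.1 in control and 648, 696 and 664 TPM with NFE2L1 (3.85, SE 0.17, adjusted p = 5.48e-06). ISG15, a ubiquitin-like modifier, was at 38.2, 41.7 and 33.7 in control and 508, 582 and 540.3 TPM with NFE2L1 (3.81, SE 0.11, adjusted p = 1.88e-07). In these 3 the controls were already unlike in level, IFI27 near 1 TPM and the others well above it, and the groups were far apart. UBE2L6, the conjugating enzyme for ISG15, was at 1.71, 2.61 and 2.03 in control and 24.9, 27.1 and 23.9 TPM with NFE2L1 (3.08, adjusted p = 7.86e-06). The oligoadenylate synthetases make the signal that activates RNase L: OAS1 was at 8.3, 10.9 and 8.07 in control and 86.5, 89.2 and 103 TPM with NFE2L1 (3.23, adjusted p = 5.04e-06). OAS3 was at 11.9, 9.76 and 11.7 in control and 67.0, 68.0 and 60.2 TPM with NFE2L1 (2.45, adjusted p = 5.04e-06). OAS2 was close to 0 in control, at 0.0166, 0 and 0.0484 TPM, and at 9.8, 9.47 and 8.57 TPM with NFE2L1, and it too was tested only through the NFE2L1 libraries.

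All 4 tested OAS and RNase L genes, all 7 IFIT and IFITM genes, all 4 tested genes of the ISG15 system and all 4 tested PARP genes rose, as did 5 of 6 IFI genes and 12 of 13 tested GTPases and restriction factors. These counts include the 4 genes that entered only through the NFE2L1 libraries, 1 of the OAS genes, 1 of the IFI genes and 2 of the GTPases and restriction factors. IFIT1, which holds back foreign capped RNA, was at 1.04, 1.18 and 2.42 in control and 14.4, 16.9 and 17.3 TPM with NFE2L1 (2.79, adjusted p = 0.000148). Its partner IFIT3 was at 0.283, 0.554 and 1.05 in control and 10.3, 12.8 and 11.5 TPM with NFE2L1 (2.96, adjusted p = 5.1e-05). Of the 36 calls 31 were made under median-of-ratios scaling, 27 or 28 were kept when 1 control or NFE2L1 library other than control replicate 3 was left out, all 36 without control replicate 3, and 26 in every fit that tested them.

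**Figure D2:**
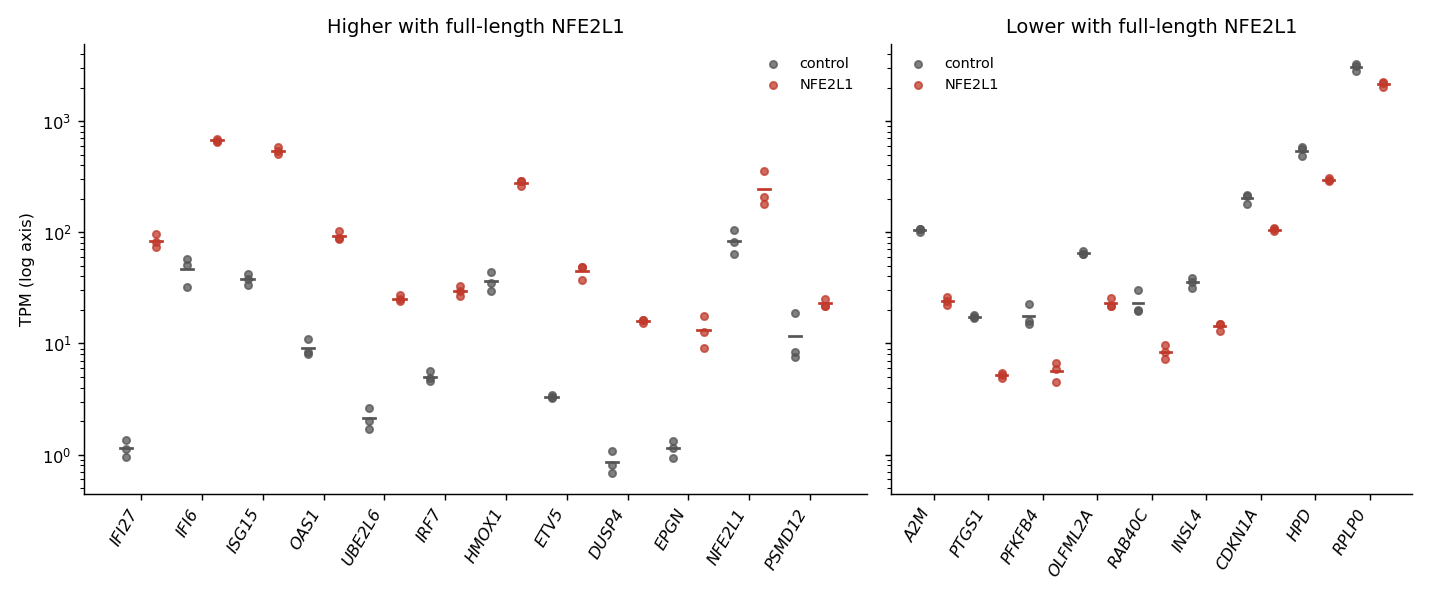
TPM on a log axis of 21 genes named in the text, 1 point per library and a bar at the group mean, for control (grey) and NFE2L1 (red), 3 libraries each. In every gene drawn the points of the groups are separate, most widely in IFI27, and PSMD12 shows control replicate 3, at 18.8 TPM, close to the NFE2L1 libraries.

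Class I antigen presentation, through which cells display peptides cut by the proteasome, had 8 of 13 tested genes higher and none lower, 1 of the 13 tested only through the NFE2L1 libraries, with a median of 0.80. The heavy chain HLA-B was at 241, 218 and 179.9 TPM in control and 518, 640.1 and 536 TPM with NFE2L1 (1.41, SE 0.12, adjusted p = 0.000188). HLA-F was lower in level, at 0.569, 0.944 and 0.238 in control and 2.94, 2.87 and 3.22 TPM with NFE2L1, and it is the gene tested only through those libraries. TAP2, a subunit of the peptide transporter, was at 17.3, 28.6 and 27.5 in control and 56.1, 45.5 and 57.1 TPM with NFE2L1 (1.11, adjusted p = 0.0258). The groups were separate in all 3, but the call of TAP2 was lost without any single control or NFE2L1 library other than control replicate 3, and so was that of ERAP1, the peptide-trimming protease (0.97, adjusted p = 0.0216). HLA genes are alike in sequence, so reads may be assigned among them unevenly. Of the 8 immunoproteasome subunits and activators 4 rose and none fell. PSMB9, which replaces a catalytic subunit of the core, was at 10.4, 9.49 and 8.21 in control and 21.9, 26.8 and 23.6 TPM with NFE2L1 (1.27, adjusted p = 0.000538). PSMB8 rose by 0.80 (adjusted p = 0.0124), the activator subunits PSME2 by 0.45 and PSME3 by 0.32. Under median-of-ratios scaling only 1 of the 4 was called, PSMB9.

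Of 17 chemokine and NF-kB genes tested, 1 of them only through the NFE2L1 libraries, 10 rose and none fell (median 0.63). The neutrophil chemokines CXCL2, at 1.05, 0.458 and 1.49 in control and 8.07, 5.6 and 8.49 TPM with NFE2L1, and CXCL3, at 1.02, 0.251 and 0.211 in control and 5.48, 4.47 and 4.58 TPM with NFE2L1, differed by 2.08 (adjusted p = 0.000625) and 2.00 (adjusted p = 0.000625). CCL5, which draws T cells and is also induced by interferon, was at 7.16, 7.05 and 6.87 in control and 17.2, 30.1 and 36.7 TPM with NFE2L1 (1.79, adjusted p = 0.00667), lowest in NFE2L1 replicate 1. The cytokine IL6 was at 0, 0.356 and 0.0785 in control and 1.73, 1.96 and 1.5 TPM with NFE2L1, so all its values were under 2 TPM, and it was tested only through the NFE2L1 libraries. Of 24 acute phase and complement genes listed 10 were tested, all of them complement genes. None of the 11 acute phase genes reached the level needed for the test. Of the 10 complement genes 7 rose and none fell, and 1 of the 10 was tested only through the NFE2L1 libraries. The complement protease C1S was at 10.6, 13.5 and 11.3 in control and 44.7, 40.2 and 29.04 TPM with NFE2L1 (1.59, adjusted p = 0.000883). Its partner C1R was at 39.0, 27.7 and 25.6 in control and 61.0, 51.2 and 75.6 TPM with NFE2L1 (1.01, adjusted p = 0.0138), a call lost without control replicate 2 or NFE2L1 replicate 3. Factor B, CFB, was at 9.33, 9.4 and 8.77 in control and 18.4, 23.1 and 21.2 TPM with NFE2L1 (1.10, adjusted p = 0.000841). No library of one group overlapped the other in these genes.

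ERK, the kinase at the end of the RAS pathway, switches on ETS factors and also its own brakes, the DUSP phosphatases and the Sprouty proteins. Of 21 tested outputs, 2 of them only through the NFE2L1 libraries, 14 rose and none fell, with a median of 1.15, and 13 kept the call in every fit that tested them. ETV5, an ETS factor, was at 3.41, 3.23 and 3.31 TPM in control and 48.7, 37.5 and 48.2 TPM with NFE2L1 (3.40, SE 0.18, adjusted p = 1.17e-05). ETV4 was at 10.3, 7.7 and 7.92 in control and 64.8, 57.5 and 66.6 TPM with NFE2L1 (2.74, adjusted p = 1.25e-05). The phosphatase DUSP4 was near 1 TPM in control, at 0.812, 0.681 and 1.07 TPM, and at 16.4, 15.2 and 16.2 TPM with NFE2L1 (3.19, adjusted p = 5.04e-06). The groups were far apart in these 3 genes. DUSP6, which dephosphorylates ERK itself, was at 0.275, 1.11 and 0.889 in control and 9.63, 4.74 and 7.4 TPM with NFE2L1 (2.22, adjusted p = 0.00298). CCND1, cyclin D1 of the G1 phase, was at 31.4, 30.6 and 45.6 in control and 133, 117 and 129 TPM with NFE2L1 (1.81, SE 0.15, adjusted p = 0.00016).

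Genes around ERK moved in part. Of 10 tested genes of the EGF receptor system 5 rose, all of them ligands or a regulator, and none fell, but 2 of the 5 had entered the test only through the NFE2L1 libraries, TGFA and EREG. The ligand EPGN was at 1.32, 1.15 and 0.94 in control and 9.02, 12.7 and 17.8 TPM with NFE2L1 (2.69, adjusted p = 0.000192). TGFA was at 0.329, 0.679 and 0.52 in control and 3.48, 2.68 and 2.55 TPM with NFE2L1, and EREG at 0.513, 0.241 and 0.848 in control and 1.31, 1.43 and 1.82 TPM with NFE2L1. The ligand NRG1 rose by 0.93, a call lost without any single control or NFE2L1 library other than control replicate 3, and the call of EREG was lost in the same way. Of 20 tested AP-1 and immediate early genes, 1 of them only through the NFE2L1 libraries, 12 rose and 1 fell. FOSL1, a FOS relative of the AP-1 dimer, was at 15.8, 17.5 and 18.9 in control and 67.1, 71.5 and 69.6 TPM with NFE2L1 (1.94, adjusted p = 8.46e-05). IER3, an early gene that protects from cell death, was at 83.4, 77.4 and 69.5 in control and 216, 197 and 213 TPM with NFE2L1 (1.43, adjusted p = 2.31e-05), and JUN at 2.43, 2.37 and 2.52 in control and 6.81, 7.42 and 6.71 TPM with NFE2L1 (1.21, adjusted p = 0.000759). Targets of YAP, TGF-beta or SRF gave 7 risers and 1 faller among 19 tested, and 12 higher and 2 lower genes without control replicate 3. CYR61, a matrix protein, was at 23.7, 20.2 and 22.2 in control and 47.5, 49.6 and 51.9 TPM with NFE2L1 (1.14, adjusted p = 0.000152), and its relative CTGF at 2.59, 2.46 and 2.65 in control and 8.1, 7.27 and 6.75 TPM with NFE2L1 (1.23, adjusted p = 0.00106).

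Regulators of G1 and targets of p53 split, 4 of 27 tested being higher and 7 lower. Their median of 0.10 was -0.08 under median-of-ratios scaling, and without control replicate 3 there were 9 higher and 8 lower. CDKN1A, the p21 inhibitor of cyclin-dependent kinases, was at 210.5, 215 and 178 TPM in control and 102, 106 and 109 TPM with NFE2L1 (-0.92, SE 0.09, adjusted p = 0.000385). BTG2, an antiproliferative p53 target, was at 27.6, 29.6 and 30.5 in control and 14.6, 15.9 and 14.3 TPM with NFE2L1 (-0.93, adjusted p = 0.000628). PMAIP1, the death promoter NOXA and also a p53 target, was on the higher side at 1.65, 2.4 and 3.39 in control and 5.27, 5.6 and 6.25 TPM with NFE2L1 (0.97, adjusted p = 0.017), a call lost without any single control or NFE2L1 library other than control replicate 3. Of 30 genes of S phase and mitosis only CDC6, which licenses replication origins, was called (0.76, adjusted p = 0.0281), and that call fell in the same way. Without control replicate 3, 15 of the 30 were higher and 1 lower, beside 31.2% and 5.87% of all tested genes.

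**Figure D3:**
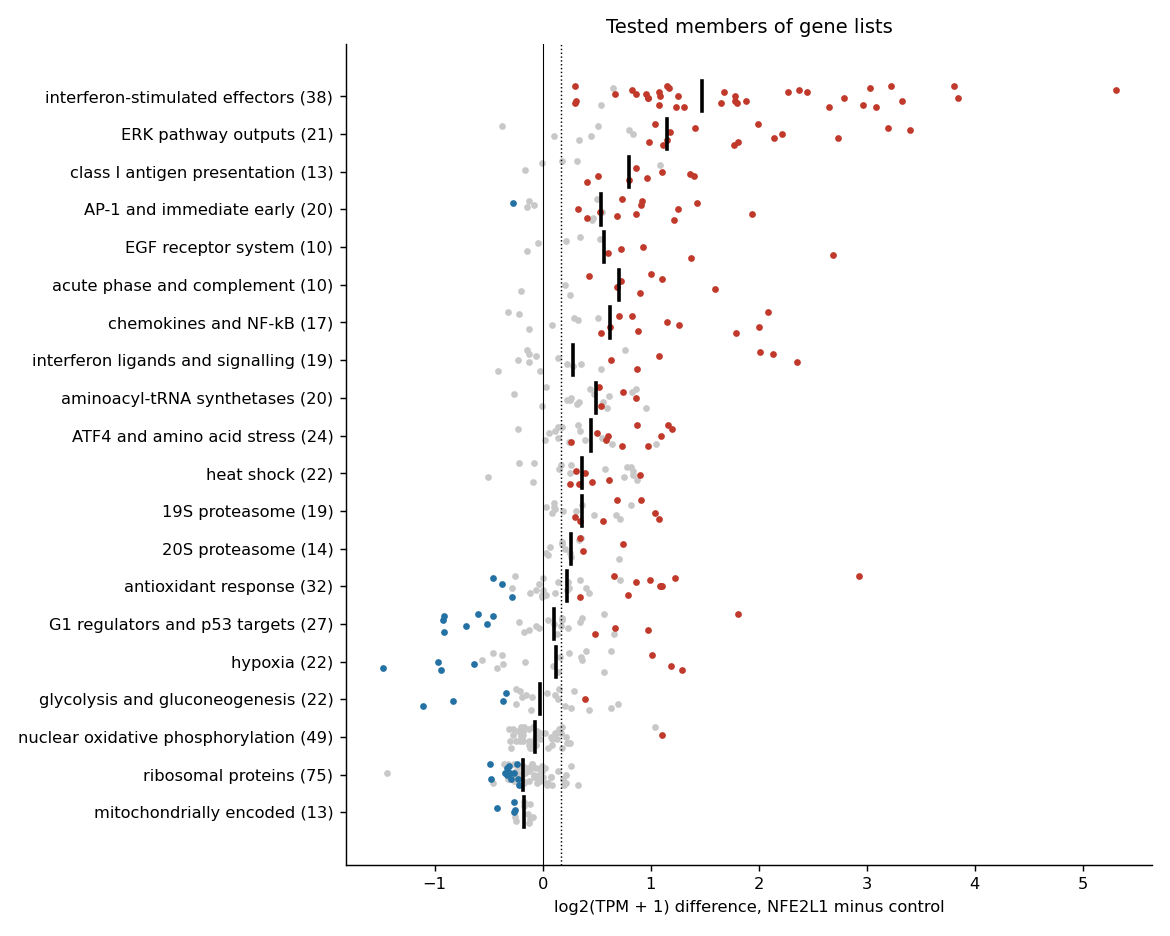
Each point is a tested member of a gene list (number tested in brackets), placed by its log2(TPM + 1) difference, NFE2L1 minus control, red where higher, blue where lower and grey where not past the threshold; the thick bar is the median of the list and the dotted line the median of all tested genes, 0.17. The effector list lies farthest to the right, and ribosomal and mitochondrially encoded genes lie left of 0 for the most part.

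ATF4 is the factor of the integrated stress response and of amino acid shortage. Of 24 tested genes of its program 10 rose and none fell, with a median of 0.45. The pseudokinase TRIB3 was at 54.3, 49.4 and 44.6 TPM in control and 108, 115 and 119 TPM with NFE2L1 (1.20, SE 0.09, adjusted p = 7.96e-05). The amino acid importer SLC38A2 was at 20.4, 15.3 and 27.9 in control and 52.8, 42.9 and 46.6 TPM with NFE2L1 (1.16, adjusted p = 0.0174), a call lost without control replicate 1, control replicate 2, NFE2L1 replicate 1 or NFE2L1 replicate 3. PSAT1, an enzyme of serine synthesis, was at 121, 123 and 191 in control and 251, 309 and 284 TPM with NFE2L1 (0.98, adjusted p = 0.0104), and asparagine synthetase, ASNS, at 62.4, 49.1 and 61.5 in control and 86.5, 91.9 and 85.5 TPM with NFE2L1 (0.61, adjusted p = 0.0088). Of 20 aminoacyl-tRNA synthetases 4 rose and none fell (median 0.50), and 14 were higher and 1 lower without control replicate 3. WARS, which is also induced by interferon gamma, was at 119, 101 and 138 in control and 227, 203 and 219 TPM with NFE2L1 (0.86, adjusted p = 0.00501) and kept its call in all 22 alternative fits, while FARSB, GARS and MARS did not. Of 24 genes of folding in the endoplasmic reticulum 1 rose and 1 fell: SELENOS, of the retrotranslocation complex, with a log2 difference of 0.63, and DERL3, a derlin of the same route, with -0.99. SELENOS lost its call without control replicate 1, NFE2L1 replicate 2 or NFE2L1 replicate 3, and under median-of-ratios scaling. DERL3 lost its call without control replicate 1, control replicate 2, NFE2L1 replicate 1 or NFE2L1 replicate 3. The folding list had 11 higher and 4 lower genes without control replicate 3. Among 22 heat shock genes there were 7 risers and no fallers, and without control replicate 3 there were 14 higher and 2 lower. HSPA8, the constitutive HSP70, was at 1248, 1385 and 1819 in control and 2214, 2287 and 2236 TPM with NFE2L1 (0.62, adjusted p = 0.0163), and its cochaperone DNAJA1 at 48.6, 56.5 and 88.5 in control and 120.1, 119.9 and 112 TPM with NFE2L1 (0.90, adjusted p = 0.024). Under median-of-ratios scaling 2 heat shock genes were higher and 1 lower, and 1 of the 7 calls was kept without control replicate 2 and 1 without NFE2L1 replicate 1.

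Among the lower genes A2M, a broad inhibitor of proteases, was at 106, 101 and 106 TPM in control and 26.2, 22.4 and 24.0 TPM with NFE2L1, 4.32-fold lower (-2.07, SE 0.11, adjusted p = 1.17e-05). PTGS1, the constitutive cyclooxygenase, was at 18.1, 17.1 and 17.2 in control and 5.44, 5.23 and 4.93 TPM with NFE2L1 (-1.57, SE 0.12, adjusted p = 8.41e-05). The matrix protein OLFML2A was at 67.7, 63.3 and 63.2 in control and 25.7, 21.7 and 21.7 TPM with NFE2L1 (-1.46, SE 0.10, adjusted p = 6e-05). In all 3 the groups were far apart with little spread inside each. INSL4 was at 31.6, 38.7 and 36.0 in control and 12.8, 14.9 and 15.0 TPM with NFE2L1 (-1.26, adjusted p = 0.000315). RAB40C, which recruits a ubiquitin ligase, was at 30.1, 20.2 and 19.6 in control and 8.3, 9.67 and 7.2 TPM with NFE2L1 (-1.35, adjusted p = 0.00278). CLIC3, HSPB7, YPEL3, WNT6, ENO3 and KLHDC8B, a chloride channel protein, a small heat shock protein, a yippee-like protein, a WNT ligand, the muscle enolase and a kelch protein, fell by 1.17 to 1.25, lowest in size for KLHDC8B at -1.17 and largest for CLIC3 at -1.25. Each of these 11 genes was called in all 22 alternative fits, as was the lower call of PFKFB4. HPD, an enzyme of tyrosine breakdown in liver, was at 560.5, 585 and 484 in control and 289, 305 and 293 TPM with NFE2L1 (-0.87, adjusted p = 0.000352). NOTUM, a secreted WNT inhibitor, was at 6.78, 5.67 and 5.9 in control and 1.28, 2.48 and 1.24 TPM with NFE2L1 (-1.44, adjusted p = 0.00222).

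Genes that answer to low oxygen moved both ways, 3 of 22 tested higher and 4 lower. Their median of 0.12 was -0.04 under median-of-ratios scaling and -0.03 after correction for GC content and length. Leaving out control replicate 3 gave 6 higher and 6 lower genes. PFKFB4, a switch of glycolytic flux, was at 15.9, 22.5 and 14.9 TPM in control and 4.53, 6.66 and 5.87 TPM with NFE2L1 (-1.48, adjusted p = 0.00415). CA9, the carbonic anhydrase of hypoxic cells, was at 224, 243 and 202 in control and 114, 117 and 115 TPM with NFE2L1 (-0.94, adjusted p = 0.000537) and is named after its values were seen. On the higher side BHLHE40, a repressor of the clock, was at 20.9, 18.97 and 23.1 in control and 54.3, 51.4 and 52.9 TPM with NFE2L1 (1.29, adjusted p = 9.08e-05). The hypoxia factor EPAS1, at 19.3, 18.2 and 22.7 in control and 38.3, 50.3 and 53.6 TPM with NFE2L1 (1.19, adjusted p = 0.0214), lost its call without control replicate 1, control replicate 2, NFE2L1 replicate 2 or NFE2L1 replicate 3. Of 22 tested genes of glycolysis and gluconeogenesis 4 fell and 1 rose, and 9 were lower and 2 higher without control replicate 3. The aldolase ALDOC was at 91.5, 101 and 87.8 in control and 39.9, 44.0 and 45.0 TPM with NFE2L1 (-1.10, adjusted p = 0.000115), and the enolase ENO2 at 111, 78.5 and 84.0 in control and 60.7, 48.1 and 43.4 TPM with NFE2L1 (-0.83, adjusted p = 0.0137). The call of ENO2 was lost without NFE2L1 replicate 2 or NFE2L1 replicate 3. LDHB, a lactate dehydrogenase subunit, was the one called higher (0.39, adjusted p = 0.0437), and that call was kept in 8 of 22 alternative fits.

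Ribosomal and mitochondrially encoded genes, among the most abundant in the table, were lower by small amounts. Of 75 ribosomal protein genes 12 fell and none rose, with a median of -0.18, and in 30 all NFE2L1 libraries were under all controls, beside 9.64% of all tested genes. With control replicate 3 left out, 35 were lower and 4 higher, beside 5.87% and 31.2% of all genes. RPLP0, of the stalk of the large subunit, was at 3108, 3231 and 2795 in control and 2037, 2267 and 2186 TPM with NFE2L1 (-0.49, adjusted p = 0.0128). Its pseudogene RPLP0P6, at 88.0, 94.2 and 73.3 in control and 48.0, 50.4 and 52.4 TPM with NFE2L1 (-0.74), may share its reads. None of the 12 calls was kept without control replicate 2, 1 without NFE2L1 replicate 1, and 6 genes were called lower after correction for GC content and length. Of the 13 protein-coding genes of the mitochondrial chromosome 4 fell and none rose. MT-ND3, of complex I, was at 4861, 4886 and 4676 in control and 3821, 3451 and 3529 TPM with NFE2L1 (-0.42, adjusted p = 0.00437) and kept its call in all 22 alternative fits, while MT-ATP6, MT-CYB and MT-CO3 lost theirs without control replicate 1 or 2 or NFE2L1 replicate 2 or 3. Of 49 nuclear genes of oxidative phosphorylation SDHC alone was called, at 81.3, 72.6 and 52.9 in control and 141, 160.3 and 140.5 TPM with NFE2L1 (1.10, adjusted p = 0.0122), and that call was lost without NFE2L1 replicate 2. Without control replicate 3, 5 of the 49 were higher and 11 lower. The 14 tested RNAs that respond to library preparation, 7 histone genes and 7 small nuclear or other abundant noncoding RNAs, had no call and a median of -0.42, 2 of them were lower without control replicate 3, and their part in these results was not tested.

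Matrix and adhesion genes gave a smaller set, with counts to be read beside the 8.14% of all tested genes called higher and the 2.69% called lower. FN1, fibronectin, was at 39.5, 34.2 and 36.0 in control and 78.2, 80.1 and 82.1 TPM with NFE2L1 (1.11, adjusted p = 0.00016), one of 5 higher genes among 24 tested matrix genes, and COL3A1, at 107, 99.8 and 114 in control and 77.3, 74.2 and 69.9 TPM with NFE2L1 (-0.53, adjusted p = 0.0106), was the one that fell, a call lost without NFE2L1 replicate 3. Leaving out control replicate 3 gave 9 higher and 1 lower matrix genes. Among 27 tested adhesion and cytoskeleton genes 5 rose and none fell, and without that library 13 were higher and 4 lower. KRT7 was at 586, 535 and 488 in control and 886, 946 and 958 TPM with NFE2L1 (0.80, adjusted p = 0.000579), the hyaluronan receptor CD44 at 139.7, 137 and 161 in control and 236, 236 and 258 TPM with NFE2L1 (0.74, adjusted p = 0.000644). The laminin receptor subunit ITGB4 was at 1.87, 1.94 and 2.14 in control and 5.29, 4.9 and 6.17 TPM with NFE2L1 (1.11, adjusted p = 0.00518). Of 23 tested autophagy and lysosome genes 3 rose and 1 fell, and without control replicate 3 there were 10 higher and 3 lower. The lysosomal protease CTSL was at 135, 151 and 143 in control and 284, 302 and 293 TPM with NFE2L1 (1.03, adjusted p = 3.88e-05). In CTSL, KRT7 and CD44 the groups did not overlap and the call held in all 22 alternative fits. Of 27 genes of cholesterol and lipid synthesis 1 rose and 2 fell, a share close to the 10.8% of all genes called, and without control replicate 3 there were 8 higher and 4 lower. Among the called genes was the master factor SREBF1 at 169, 171 and 162 in control and 133, 131 and 125 TPM with NFE2L1 (-0.37, adjusted p = 0.00785). Its call was lost after correction for GC content and length, under which no gene of that list was called lower. Of 10 tested genes of fatty acid oxidation 1 was called, a count near the share of all genes, with 2 higher and 1 lower without control replicate 3. It was CPT1A, which admits fatty acids to mitochondria, at 48.1, 44.8 and 44.9 in control and 64.3, 63.4 and 64.7 TPM with NFE2L1 (0.47, adjusted p = 0.0088). That call was lost under median-of-ratios scaling, where no gene of the list was called higher and 1 was called lower.

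Outside protein-coding genes, the largest riser with a mean of at least 10 TPM was AL662797.3 on chromosome 6, at 2.8, 8.47 and 2.8 TPM in control and 23.5, 31.1 and 41.0 TPM with NFE2L1 (2.64, adjusted p = 0.00195). The largest fall was in MIR210HG, the host transcript of a microRNA induced by low oxygen, at 10.7, 16.2 and 8.83 in control and 3.32, 4.96 and 3.58 TPM with NFE2L1 (-1.36, adjusted p = 0.0264). That call was lost without any single library of the 2 groups other than control replicate 3. The antisense transcript EML2-AS1 was at 24.2, 23.3 and 21.4 in control and 11.8, 13.1 and 11.98 TPM with NFE2L1 (-0.85, adjusted p = 0.00448), and GACAT2 at 25.2, 26.0 and 23.1 in control and 12.3, 14.2 and 15.2 TPM with NFE2L1 (-0.79, adjusted p = 0.00307). The sources used here do not say whether reads were counted by strand, so reads of an antisense transcript and of the gene opposite cannot be told apart.

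**Figure D4:**
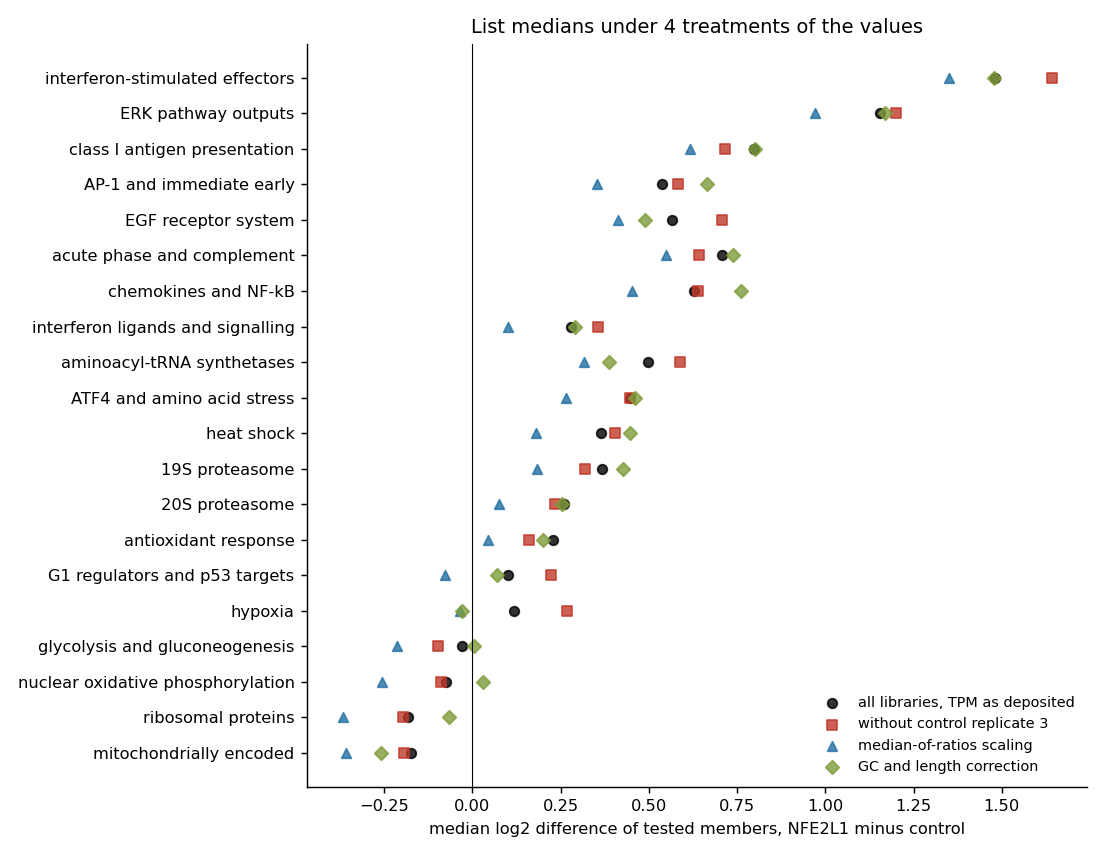
Median log2 difference of the tested members of 20 gene lists, NFE2L1 minus control, under 4 treatments of the values: all libraries as deposited (black), without control replicate 3 (red), median-of-ratios scaling (blue) and correction for GC content and length (green). The lists of interferon-stimulated effectors and ERK outputs stay above 0.9 under each, scaling lowers every list, and the medians of the G1, hypoxia, glycolysis and nuclear oxidative phosphorylation lists change sign under at least 1 treatment.

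The second comparison set full-length NFE2L1 against NFE2L1DC, which asks where the full form differs from the altered one. It uses the control libraries for the spread and for the filter, which rested on control and NFE2L1 libraries. Genes that reached 1 TPM with NFE2L1DC alone were therefore not tested, while 93 tested genes had entered through the NFE2L1 libraries alone. Counts in the 2 directions are thus not on the same footing. Of 13751 genes 101 were higher with full-length NFE2L1 (0.734%) and 11 lower (0.08%), with a median difference of 0.06; 1151 genes had an unadjusted p under 0.05. Both comparisons use the same NFE2L1 libraries, so values are given side by side. Of the 38 tested interferon effectors, 4 of them tested only through the NFE2L1 libraries, 25 were higher than in NFE2L1DC and none lower, and of 21 ERK outputs 4 were higher and none lower. None of the 14 core and 19 cap genes of the proteasome was called, a count close to the 0.734% and 0.08% of all genes. Their median differences were 0.10 and 0.17, beside 0.06 for all tested genes. The count therefore does not show that the forms are alike in these genes.

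HMOX1 differed most. It was at 23.8, 28.1 and 28.3 TPM with NFE2L1DC, under all 3 controls, and at 262, 288 and 287 TPM with full-length NFE2L1 (3.34, limma adjusted p = 5.75e-06). ISG15 was at 75.7, 90.8 and 91.4 TPM with NFE2L1DC, above the controls and far under the full form (2.65, adjusted p = 5.75e-06). IRF7 was at 5.02, 3.89 and 4.01 TPM (2.54, adjusted p = 5.35e-05) and IRF9 at 8.2, 7.27 and 12.6 TPM (2.33, adjusted p = 0.00297), in both cases near the controls. UBE2L6 was at 3.51, 4.24 and 3.37 TPM (2.48, adjusted p = 8.31e-05), and IFIT3 at 1.65, 1.46 and 1.04 TPM (2.40, adjusted p = 0.000644). The ligand EPGN and JUN were also higher with the full form, by 2.25 (adjusted p = 0.0022) and 1.06 (adjusted p = 0.00664). ETV5, at 23.0, 19.2 and 31.4 TPM with NFE2L1DC, did not pass (0.86, adjusted p = 0.0867), nor did CDKN1A, at 101, 112 and 101 TPM (0.02, adjusted p = 0.985).

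On the lower side RAB40C was at 17.1, 22.1 and 21.3 TPM with NFE2L1DC, overlapping the controls, and at 8.3, 9.67 and 7.2 TPM with full-length NFE2L1 (-1.17, adjusted p = 0.0212). FN3KRP, a kinase that removes sugar adducts from proteins, was at 48.2, 55.5 and 53.7 TPM with NFE2L1DC and 31.1, 19.97 and 19.6 TPM with the full form (-1.15, adjusted p = 0.0183). TRIM16, a ubiquitin ligase tied to autophagy, was at 115, 105 and 97.3 with NFE2L1DC and 49.4, 45.9 and 53.7 TPM with the full form (-1.08, adjusted p = 0.016), and the muscle troponin TNNC1 at 19.8, 22.9 and 20.8 with NFE2L1DC and 8.92, 10.1 and 12.8 TPM with the full form (-0.94, adjusted p = 0.0335). OLFML2A, at 38.8, 32.9 and 35.3 TPM with NFE2L1DC, was the fifth (-0.61, adjusted p = 0.0294). LAMTOR5, of the Ragulator complex on lysosomes, was at 97.5, 95.2 and 90.7 TPM in control, 89.0, 96.2 and 102 TPM with NFE2L1 and 152, 137 and 141 TPM with NFE2L1DC (-0.58 between the overexpressing lines, adjusted p = 0.00872). A2M was at 16.4, 13.5 and 17.2 TPM with NFE2L1DC, lower than with the full form (0.59, adjusted p = 0.0456), although both lines were under the controls. NFE2L1 itself was at 445, 427 and 472 TPM with NFE2L1DC, and its difference from the full form did not pass (-0.92, adjusted p = 0.223).

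**Figure D5:**
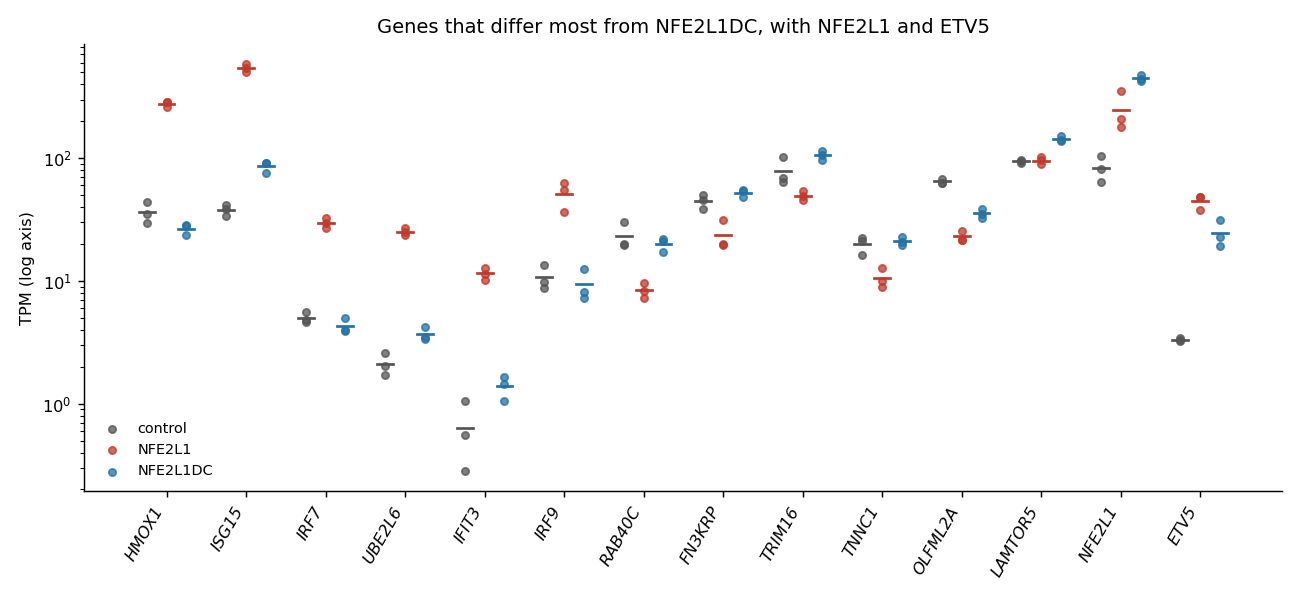
TPM on a log axis in control (grey), NFE2L1 (red) and NFE2L1DC (blue) for the genes that differ most between NFE2L1 and NFE2L1DC, with NFE2L1 and ETV5 beside them, 1 point per library and a bar at the mean of 3. In HMOX1, IRF7 and IRF9 the red points stand above both other groups, and in ETV5 the points of both overexpressing lines lie above the controls.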

How the data were processed

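RNA-seq abundances were analysed in 9 libraries, 3 per group. The authors deposited 1 table of values taken here as TPM, abundance per transcript length scaled to 1 total per library; the file does not name the unit, which was inferred from near-equal column sums, so depth is unknown and no counting interval can be given. Per the submitters' processing notes, CASAVA and GRCh38 were used; the sources used here do not give the aligner, quantifier or strandedness. Genes with at least 1 TPM in at least 3 of the 6 control and NFE2L1 libraries were tested on log2(TPM + 1) with limma 3.58.1 (trend, R 4.3.3), with all 9 libraries sharing the spread and Benjamini-Hochberg adjustment over 13751 genes. The model was tested on simulated data. The members and the 47 gene lists were chosen with earlier results of these data known. Genes named are NFE2L1 and its partners; the 12 largest changes each way and the 10 smallest p-values among protein-coding genes of at least 10 TPM in either group whose groups do not overlap; up to 4 called members per list; up to 5 noncoding genes each way; and 6 genes each way against NFE2L1DC. PML, IFI27L2, CA9, ADRM1, PSMC4, GSR, GPX4, TKT and the neighbours IFIT2, IFIT5 and TAP1 lie outside that rule and were chosen after their values were seen. Some marker genes given in the check of the labelled cell type also lie outside that rule. Promoters came from RefSeq GRCh38.p14 and matched 9740 of the 13751 tested genes, so a share over tested genes covers these alone. Alternatives changed the pseudocount, filter, scaling, GC and length correction, model and libraries. Some genes are not reported here.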

Additional observations from a re-analysis of the deposited data

How the results depend on the processing

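Of 153 called genes named or eligible to be named, 76 kept their call in every alternative that tested them; of 3325 values 549 fell short of the threshold and none reversed. Of the 4 that were not called, NFE2L2 reversed to -0.05 under median-of-ratios scaling, to -0.045 with GC and length correction and to -0.045 with that correction and the replicate block, and ranged from -0.157 to 0.602 when 1 library was left out.

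Counts moved as follows. With no filter 970 genes changed, 697 of them higher, and 91.4% were protein-coding. With 1 TPM needed in all 6 libraries 74 differed from NFE2L1DC, and with a mean of at least 5 TPM 188 changed by at least 1. Median-of-ratios scaling gave 557 higher genes and 88.0% protein-coding. The 6 libraries alone gave 881 changed, 644 higher and 237 lower, 91.1% protein-coding. GC and length correction gave 91.4% and the robust model without trend 91.6%. Replicate numbers share only a number: correlations of same-numbered libraries ran from -0.193 to 0.122. The replicate block gave 938 changed, 696 higher and 242 lower, with 61 against NFE2L1DC, and with GC and length correction 189 lower.

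Leaving out 1 library at a time, changed genes ranged from 529 to 5100, higher from 396 to 4293, lower from 133 to 807, those changed by at least 1 from 212 to 821, those without overlap from 4482 to 8748, changed list members from 129 to 457, those against NFE2L1DC from 49 to 152, protein-coding shares from 91.3% to 95.2% and the NFE2L1 difference from 1.23 to 1.72. The highest counts of changed, higher and lower genes came without control replicate 3. Correcting without that library was added after seeing the data. With median-of-ratios scaling it gave 4499 changed, 2279 higher and 2220 lower, 459 list members, 8544 without overlap and 89.9% protein-coding. With GC and length correction it gave 4289 changed, 3890 higher, 452 changed by at least 1, 193 against NFE2L1DC, 413 list members, 8324 without overlap and 89.1% protein-coding. The cause of these shifts was not tested.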
